A study of Mus musculus with 8 samples.

Results

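The CD3 complex chains are the transcripts of 4 mouse genes, Cd3e, Cd3d, Cd3g and Cd247, and they were measured here with 7 of the 45141 probe sets on each array. A probe set was a member if the platform annotation gave it one of these 4 symbols and no other. Cd3e, Cd3d and Cd3g had 1 probe set each and Cd247 had 4. RNA was profiled on 8 one-colour Affymetrix arrays, 2 in each of 4 groups that combine genotype with cell population. The genotypes were wild type (WT) and Nfil3 knockout (KO), and the populations were all-lymphoid progenitors (ALP) and prepro NK cells (preproNK). All 8 samples, WT and KO alike, came from the bone marrow of mice carrying the Id2-GFP reporter, whose fluorescence reports Id2 activity, and the cells were sorted from the lineage-depleted fraction and lysed at once without culture. The labels name neither the antibodies of the depletion and the sort nor the age, sex or number of mice behind a sample. Replicates 1 and 2 mark 2 processing dates, each with 1 array of every group.

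In T cells, CD3 epsilon pairs with CD3 delta and with CD3 gamma, and these pairs join the zeta chain dimer encoded by Cd247 to carry the signal of the T cell receptor. Their tails hold immunoreceptor tyrosine-based activation motifs (ITAMs), which Lck phosphorylates and to which the kinase Zap70 then binds. The zeta chain also serves outside the T cell receptor. In NK cells it couples to receptors such as NKp46, the product of Ncr1, a task it shares with the Fc receptor gamma chain. Nfil3 is a bZIP transcription factor needed for NK cell development, and the series asked where along that path it is required.

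Cd3g, Cd3d and Cd3e lie side by side on mouse chromosome 9, whereas Cd247 lies alone on chromosome 1 (RefSeq annotation, build GRCm38.p6). Cd3g spans chr9:44969572-44980431 on the minus strand and Cd3d spans chr9:44981769-44987052 on the plus strand. Their annotated starts face away from each other across 1337 bases that hold no other annotated gene. Cd3e spans chr9:44998735-45009663 on the minus strand, 11682 bases beyond Cd3d, again with no annotated gene between. Cd247 spans chr1:165779952-165871153 on the plus strand. Since these genes form a cluster and its distant partner, a window of 250 bases is shown for each, read 5′ to 3′ on the gene's own strand from RefSeq, GRCm38.p6. Each window ends just before the transcript start that the promoter table lists. That start is the annotated gene start for Cd3g, but lies 17 bases downstream of it for Cd3d, 52 for Cd3e and 8729 for Cd247, so the Cd247 window lies wholly inside the annotated gene. All 4 genes had an entry, at chr9:45009612-45009861 for Cd3e, chr9:44981536-44981785 for Cd3d, chr9:44980432-44980681 for Cd3g and chr1:165788431-165788680 for Cd247. Capitals mark matches to the motifs searched.
Cd3e: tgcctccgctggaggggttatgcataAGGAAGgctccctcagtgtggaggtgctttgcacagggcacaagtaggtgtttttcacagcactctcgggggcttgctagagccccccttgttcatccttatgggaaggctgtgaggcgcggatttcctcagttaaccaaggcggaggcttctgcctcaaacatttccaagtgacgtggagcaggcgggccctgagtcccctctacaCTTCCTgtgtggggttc
Cd3d: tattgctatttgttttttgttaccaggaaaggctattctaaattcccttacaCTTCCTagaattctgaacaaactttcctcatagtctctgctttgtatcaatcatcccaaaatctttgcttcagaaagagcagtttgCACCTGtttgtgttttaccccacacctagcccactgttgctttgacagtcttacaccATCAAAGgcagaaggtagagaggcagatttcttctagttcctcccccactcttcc
Cd3g: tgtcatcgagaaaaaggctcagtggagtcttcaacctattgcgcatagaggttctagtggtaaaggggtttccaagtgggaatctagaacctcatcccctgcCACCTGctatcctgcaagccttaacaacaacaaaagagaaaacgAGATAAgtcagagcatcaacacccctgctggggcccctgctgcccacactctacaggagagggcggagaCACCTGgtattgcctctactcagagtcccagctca
Cd247: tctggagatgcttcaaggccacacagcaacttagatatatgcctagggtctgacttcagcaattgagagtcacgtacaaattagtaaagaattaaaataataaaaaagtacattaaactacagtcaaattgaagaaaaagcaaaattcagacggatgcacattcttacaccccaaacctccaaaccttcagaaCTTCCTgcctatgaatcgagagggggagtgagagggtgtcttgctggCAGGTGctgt
The search covered both strands and 6 motif families, and no matches to different families overlapped in these windows. E-box letters (CAGCTG or CACCTG), which E proteins can bind, stood in the windows of Cd3d, Cd3g (2 matches) and Cd247, and in 27.7% of the 32851 promoter windows of the same length. ETS letters (AGGAAG) stood in those of Cd3e, Cd3d and Cd247 and in 29.5% of all windows. TCF letters (ATCAAAG or TTCAAAG) stood in the Cd3d window and in 7.48% of all windows, and GATA letters (AGATAA or TGATAA) in the Cd3g window and in 16.6%. RUNX letters (TGTGGT or TGCGGT, in 18.6% of windows) and the NFIL3 letters searched (TTACGTAA, TTATGTAA or TTACATAA, in 0.931% of windows) stood in none of the 4.

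**Figure D1:**
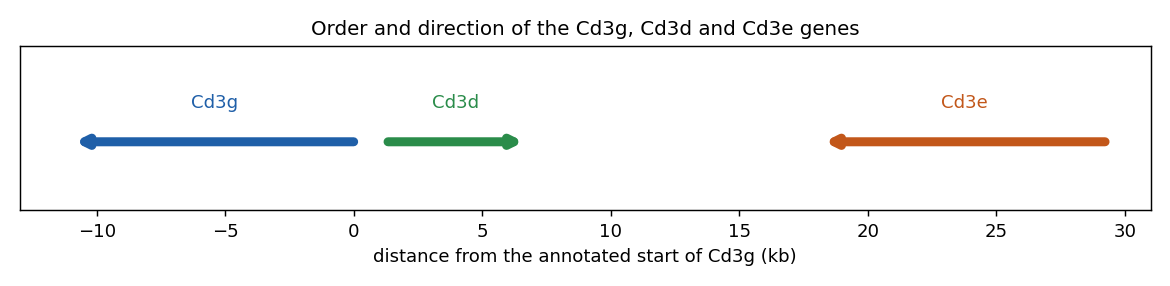
Map of the Cd3g, Cd3d and Cd3e genes on mouse chromosome 9 as distance in kb from the annotated start of Cd3g, with arrows in the direction of transcription. Cd3g and Cd3d point away from each other across 1337 bases, and Cd3e lies 11682 bases beyond Cd3d.

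The arrays differed in range, which touches the values below. WT preproNK replicate 2 had an SD of 1.39 (log2, all probe sets) and WT ALP replicate 2 one of 1.55, against 1.66 to 1.88 on the other 6 arrays. Each level is therefore also given against the median of its own array, which lay between 3.93 and 4.27 log2, and as a percentile of that array's probe sets. A value below the array median is treated as near background, since the deposited values carry no detection calls. Nfil3, the targeted gene, was at 6.89 and 5.50 in WT ALP and 3.41 and 4.15 in KO ALP, then 4.75 and 4.74 in WT preproNK and 3.84 and 3.57 in KO preproNK (log2 values of replicates 1 and 2), so every KO array lay below every WT array. The labels do not give which part of Nfil3 is deleted, so its probe set may lie outside that part. Among ALP markers, Dntt, the template-free DNA polymerase of lymphoid progenitors, was at 10.17 to 10.87 on the ALP arrays and 4.47 to 4.76 on the preproNK arrays. Among NK markers, Ncr1 was below the array median on all 8 arrays, with 3.28 on both KO preproNK arrays and 3.89 and 4.01 on the WT preproNK arrays. Most of its list differed from it. Of the 12 NK markers tested, which leave out Ncr1, 10 were higher in KO than in WT preproNK (57.1% of all tested genes were) and 2 were lower. Their median difference was 1.43 log2 (0.15 over all tested genes), and 0 of the 12 had an adjusted p under 0.05 (limma).

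The clearest pattern was a rise of all 4 chains from ALP to preproNK in the KO, with lower values in WT preproNK than in KO preproNK for every chain on both dates. Transcripts of Cd3e and Cd3g were near background in ALP of either genotype. Those of Cd3d and Cd247 were above the array median there, Cd3d by as little as 0.48 log2. Cd3e and Cd3g were therefore among the tested genes only through their preproNK arrays. In bulk samples such as these, more cells with a transcript and more transcript per cell cannot be told apart.

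Cd3e encodes CD3 epsilon, the chain that every CD3 pair contains. Its log2 values in replicates 1 and 2 were 2.93 and 3.48 in WT ALP and 2.93 and 3.27 in KO ALP, then 8.48 and 6.59 in WT preproNK and 9.99 and 10.45 in KO preproNK. All 4 ALP values were below the array median, by 0.65 to 1.03 log2, and the 4 preproNK values were above it by 2.32 to 6.45 log2. As a percentile of its array, Cd3e went from between 20.4 and 32.1 in ALP to 96.8 and 92.9 in WT preproNK and 99.2 and 99.6 in KO preproNK. The group levels were 3.21 ± 0.38 in WT ALP and 3.10 ± 0.24 in KO ALP, then 7.53 ± 1.34 in WT preproNK and 10.22 ± 0.33 in KO preproNK (log2, SD, n = 2 each), and only the ALP groups overlapped.

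Cd3g encodes CD3 gamma, which pairs with epsilon. Its log2 values were 3.49 and 3.42 in WT ALP and 3.31 and 3.55 in KO ALP, then 8.27 and 4.69 in WT preproNK and 10.34 and 9.91 in KO preproNK. The WT preproNK arrays differed by more than for any other chain, and on replicate 2, the array with the narrow range, Cd3g stood only 0.42 log2 above the array median. Its percentile there was 60.9, against 96.1 on WT preproNK replicate 1 and 99.5 and 99.2 in KO preproNK. The group levels were 3.45 ± 0.05, 3.43 ± 0.17, 6.48 ± 2.54 and 10.13 ± 0.30 in the group order used for Cd3e (log2, SD, n = 2 each).

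Cd3d encodes CD3 delta, the other partner of epsilon. Its log2 values were 4.61 and 5.61 in WT ALP and 4.46 and 4.49 in KO ALP, then 7.42 and 6.37 in WT preproNK and 9.51 and 8.87 in KO preproNK. Here the ALP arrays were already 0.48 to 1.48 log2 above their medians, at percentiles 58.9 to 79.2. The WT preproNK arrays stood at percentiles 91.9 and 90.9, close to each other, and the KO preproNK arrays at 98.7 and 97.6. The group levels were 5.11 ± 0.71, 4.48 ± 0.02, 6.89 ± 0.75 and 9.19 ± 0.45 (log2, SD, n = 2 each), and all 4 groups were apart.

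Cd247 encodes the zeta chain. The probe set that represents it is the one with the highest mean over all 8 arrays, the KO preproNK arrays among them. It gave log2 values of 5.91 and 5.63 in WT ALP and 6.25 and 5.54 in KO ALP. In preproNK it gave 6.65 and 5.98 in WT and 9.09 and 8.87 in KO. Unlike Cd3e and Cd3g, this transcript was above the array median on all 8 arrays, at percentiles 76.8 to 80.3 in ALP, 85.9 and 86.4 in WT preproNK and 98.1 and 97.6 in KO preproNK. The group levels were 5.77 ± 0.20, 5.90 ± 0.50, 6.31 ± 0.47 and 8.98 ± 0.16 (log2, SD, n = 2 each). KO preproNK stood apart, WT preproNK overlapped with KO ALP, and the ALP groups overlapped with each other.

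**Figure D2:**
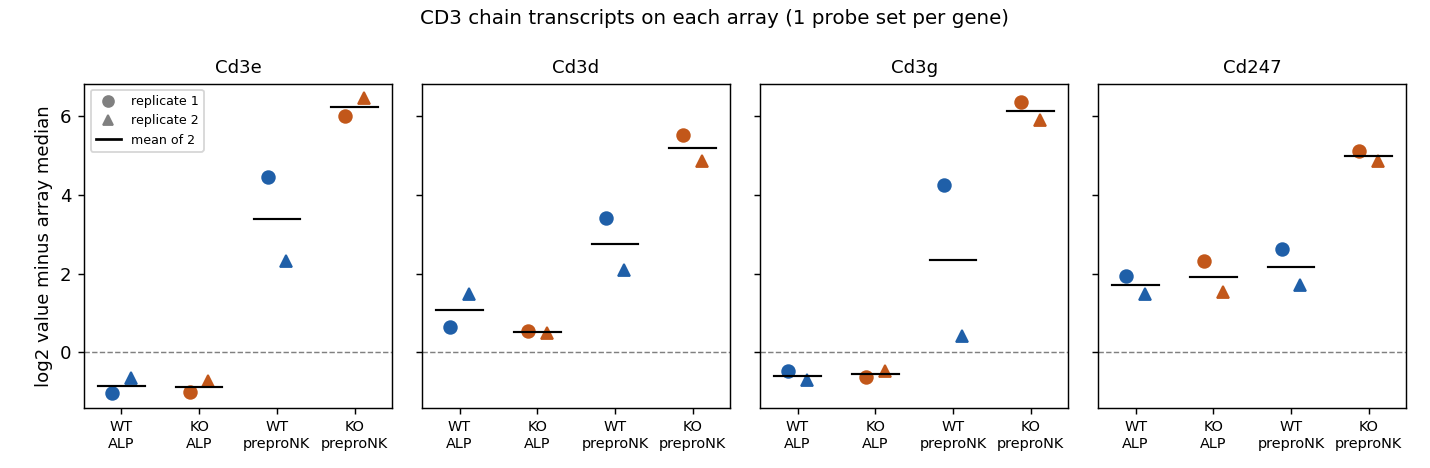
Log2 value minus the median of its array (vertical axis) for the representative probe set of each chain in the 4 groups, with circles for replicate 1, triangles for replicate 2, blue for WT, orange for KO and a bar for the mean of 2 arrays. The KO preproNK arrays were the highest for all 4 chains, and Cd3g on WT preproNK replicate 2 lay 0.42 above the median.

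The 4 probe sets of Cd247 did not agree, so its values depend on which is read. The choice of the representative was not independent of the KO preproNK values. In ALP, 1426079_PM_at had higher group means than the representative (6.24 against 5.77 in WT, 6.46 against 5.90 in KO). In preproNK it had lower ones (5.86 against 6.31 in WT, 7.67 against 8.98 in KO). Probe set 1426396_PM_at, like the representative 1452539_PM_a_at, was highest in KO preproNK. It gave 9.06 and 8.55 there, 6.82 and 5.38 in WT preproNK, 5.96 and 4.35 in KO ALP and 5.71 and 4.01 in WT ALP. Probe set 1426079_PM_at showed the same order at its top with a smaller distance, at 7.73 and 7.61 in KO preproNK, 7.03 and 4.70 in WT preproNK, 6.82 and 6.09 in KO ALP and 6.63 and 5.84 in WT ALP. Probe set 1420716_PM_at was flat across groups. Its group means were 5.44 ± 0.71 in WT ALP and 5.64 ± 0.53 in KO ALP, then 5.45 ± 0.28 in WT preproNK and 5.65 ± 0.49 in KO preproNK (log2, SD, n = 2 each), and replicate 2 was above replicate 1 in every group. In a limma fit over all 26240 probe sets that passed the filter, the log2 difference between preproNK and ALP in the KO was 3.09 (SE 0.41, adjusted p = 0.0201) for 1452539_PM_a_at and 3.65 (SE 0.79, adjusted p = 0.0902) for 1426396_PM_at, in a fit that called 0.998% of probe sets higher. It was 1.21 (SE 0.74, adjusted p = 0.769) for 1426079_PM_at, and 0.0037 with a 95% interval from -1.15 to 1.15 for 1420716_PM_at. What each probe set targets within the transcripts was not tested.

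**Figure D3:**
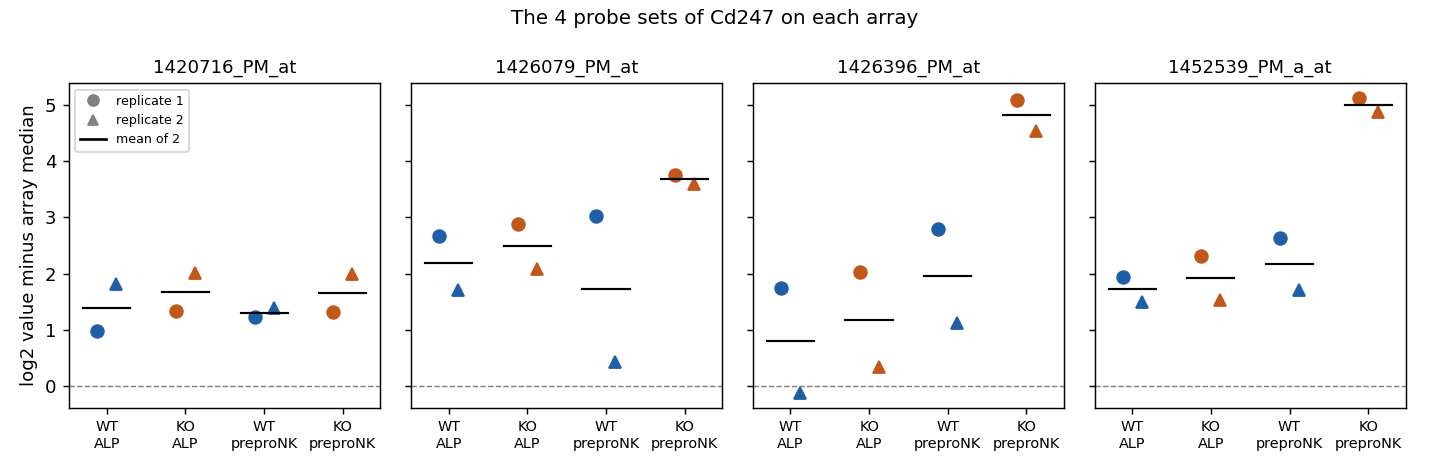
Log2 value minus array median (vertical axis) for the 4 probe sets of Cd247 in the 4 groups, drawn as circles for replicate 1, triangles for replicate 2 and bars for means, blue for WT and orange for KO. KO preproNK is highest in 3 panels, and 1420716_PM_at is flat, with group means from 5.44 to 5.65 before the median is taken off.

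The step from ALP to preproNK was largest in the KO. There all 4 chains rose by their representative probe sets (limma, adjusted p under 0.05 over 11583 genes), in a comparison in which 1.22% of tested genes were called higher. No other probe set of Cd247 passed. Cd3e rose by 7.12 log2 (SE 0.61, adjusted p = 0.00386), which is at least 76.1-fold once its ALP values are set to the array medians. Cd3g rose by 6.69 log2 (SE 0.97, adjusted p = 0.0196), at least 71.3-fold by the same floor. Cd3d rose by 4.71 log2 (SE 0.52, adjusted p = 0.00851), 26.2-fold, and Cd247 by 3.09 log2 (SE 0.42, adjusted p = 0.0143), 8.49-fold. The date pairs gave 7.06 and 7.18 for Cd3e, 7.03 and 6.36 for Cd3g, 5.04 and 4.38 for Cd3d and 2.84 and 3.33 for Cd247 (log2 differences in replicates 1 and 2). The median over the 4 chains was 5.70 log2, and over all tested genes it was -0.0042. These calls rest on having all 4 arrays of the comparison. Leaving out any 1 of them (either KO ALP or either KO preproNK array) ended the call of every chain, with adjusted p from 0.0551 to 0.248 and differences of 6.89 to 7.35 log2 for Cd3e, 6.48 to 6.91 for Cd3g, 4.39 to 5.03 for Cd3d and 2.73 to 3.44 for Cd247.

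In WT, the same step gave differences above 0 for the representative probe sets of all 4 chains. None passed the test, in a comparison with 0.0345% of tested genes called higher. For Cd3e the log2 difference was 4.33 (SE 0.61, adjusted p = 0.0813), at least 11.2-fold with the floor. With the replicate number as a block it passed (adjusted p = 0.0378, 0.268% of genes called higher). The difference was 3.38 log2 without WT preproNK replicate 1 and 5.27 log2 without replicate 2. It was 4.06 log2 without WT ALP replicate 1 and 4.60 log2 without replicate 2. Whether the Cd3e difference passed depended on which array was left out. It did not pass with the block over all probe sets (adjusted p = 0.0616). For Cd3g it was 3.02 (SE 0.97, adjusted p = 0.439), at least 5.39-fold, and the pairs of replicates 1 and 2 gave 4.78 and 1.27. Without WT preproNK replicate 2 it was 4.82, and without replicate 1 it was 1.23. Whether the Cd3g difference passed also depended on which array was left out. For Cd3d it was 1.78 (SE 0.52, adjusted p = 0.353), from 2.81 and 0.75 in the pairs. For Cd247 it was 0.55 (SE 0.42, adjusted p = 0.913), with a 95% interval from -0.42 to 1.52. Other probe sets of Cd247, fitted over all probe sets, gave 1.24 for 1426396_PM_at (SE 0.79), -0.37 for 1426079_PM_at (SE 0.74) and 0.0081 for 1420716_PM_at (SE 0.49). On each of these, WT preproNK overlapped with WT ALP. By the representative probe sets, the preproNK arrays lay above the ALP arrays within each genotype for all 4 chains. They did so for 9.73% of tested genes in WT and 22.2% in the KO.

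Averaged over both genotypes, all 4 chains rose from ALP to preproNK by their representative probe sets, in a comparison in which 1.77% of tested genes were called higher. The log2 difference was 5.72 for Cd3e (SE 0.43, adjusted p = 0.00135), 4.86 for Cd3g (SE 0.69, adjusted p = 0.0115), 3.24 for Cd3d (SE 0.37, adjusted p = 0.00536) and 1.82 for Cd247 (SE 0.30, adjusted p = 0.0199). The 3 chains of the chromosome 9 cluster had each of their 4 preproNK values above each of their 4 ALP values, as did 4.52% of tested genes. For Cd247 the lowest preproNK value, 5.98, was below the highest ALP value, 6.25. Its other probe sets did not pass in the limma fit over all probe sets. They gave 2.45 for 1426396_PM_at (SE 0.56, adjusted p = 0.0726), 0.42 for 1426079_PM_at (SE 0.52, adjusted p = 0.85) and 0.0059 for 1420716_PM_at (SE 0.35, adjusted p = 0.998). Cd3e kept its call without any 1 array, while Cd3d lost it without KO preproNK replicate 1 (adjusted p = 0.0561). Cd3g lost it without any 1 KO array (adjusted p from 0.0538 to 0.0913) and Cd247 without any 1 KO or WT ALP array (adjusted p from 0.069 to 0.143).

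Within preproNK, every chain had higher values in the KO than in WT on both dates, but none passed the test without the replicate number as a block. By limma 0% of tested genes were called here; at an unadjusted p under 0.05 there were 625, with 522 higher in the KO. Cd247 had a log2 difference of 2.67 (SE 0.42, adjusted p = 0.188), from 2.45 and 2.89 in the replicate 1 and 2 pairs, a 6.36-fold distance. With the block its adjusted p was 0.0457, when 0.0863% of tested genes were called higher. With the block over all probe sets it did not pass (adjusted p = 0.0862). Cd3d differed by 2.29 (SE 0.52, adjusted p = 0.425), from 2.08 and 2.50. For Cd3e the difference was 2.69 (SE 0.61, adjusted p = 0.427) from 1.51 and 3.87, and for Cd3g it was 3.65 (SE 0.97, adjusted p = 0.613) from 2.07 and 5.23. Cd3e and Cd3g thus had much larger distances in the pair that holds the narrow-range array, and Cd247 and Cd3d did not. Without that array, WT preproNK replicate 2, the log2 differences were 1.74 for Cd3e, 1.77 for Cd3d, 1.86 for Cd3g and 2.34 for Cd247. Without WT preproNK replicate 1 they were 3.63, 2.82, 5.44 and 3.002 in the same order. That fit has only the narrow-range array for WT preproNK. Whether the chains passed the test depended on which of these arrays was left out. By the representative probe sets, the KO and WT preproNK groups did not overlap for any of the 4, which was so for 22.7% of tested genes in this direction. Of the probe sets of Cd247, 1426396_PM_at differed by 2.70 (SE 0.79), 1426079_PM_at by 1.80 (SE 0.74) and 1420716_PM_at by 0.20 with a 95% interval from -0.95 to 1.35. This comparison shares its KO preproNK arrays with the step in the KO and its WT preproNK arrays with the step in WT.

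In ALP, loss of Nfil3 went with no detectable difference in any chain, in a comparison with 0% of tested genes called and 5 with an unadjusted p under 0.05. The log2 differences between KO and WT were -0.11 for Cd3e (95% interval -1.53 to 1.31), -0.02 for Cd3g (-2.27 to 2.23), -0.63 for Cd3d (-1.83 to 0.56) and 0.13 for Cd247 (-0.84 to 1.10). The intervals are wide, and Cd3e and Cd3g were near background in both genotypes, so no fold is given for them. The spread behind each interval is shared over all 4 groups and not taken from the ALP arrays alone. For Cd3g the SE was 0.97, with SDs of 0.05 in WT ALP and 0.17 in KO ALP but 2.54 in WT preproNK. For Cd3d the pairs gave -0.15 and -1.12, and the groups did not overlap, as for 7.4% of tested genes in this direction. The interaction, which asks whether the KO effect differs between preproNK and ALP, was 2.79 for Cd3e (SE 0.87), 2.93 for Cd3d (SE 0.73), 3.67 for Cd3g (SE 1.37) and 2.54 for Cd247 (SE 0.59). None passed the test (adjusted p = 1 for each), with 0% of tested genes called and 183 at an unadjusted p under 0.05, and all 4 were above 0 in both date pairs. They moved most with the WT preproNK arrays, to 1.85 for Cd3e and 1.88 for Cd3g without replicate 2 and to 3.74 and 5.46 without replicate 1, and with any 1 array left out none passed (adjusted p from 0.062 upward).

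**Figure D4:**
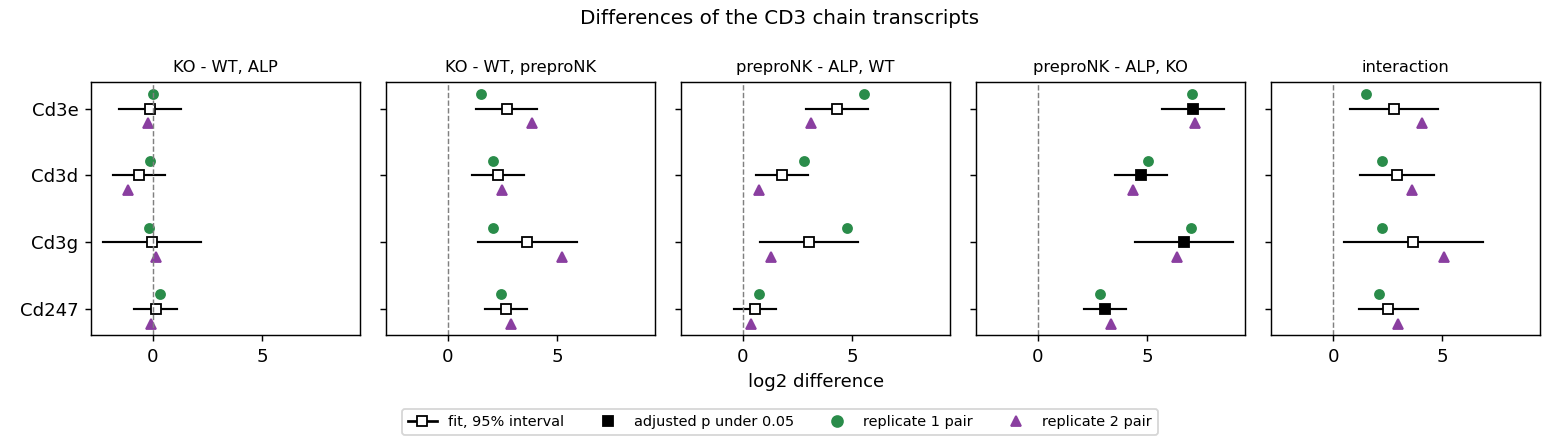
Log2 differences of the 4 chains (horizontal axis) in 5 comparisons, with squares for the fitted value, lines for its 95% interval, filled squares for an adjusted p under 0.05, circles for the replicate 1 pair and triangles for the replicate 2 pair. All filled squares are in the step from ALP to preproNK in the KO, and the Cd3g pairs lie far apart between KO and WT preproNK (2.07 and 5.23) and for the step in WT (4.78 and 1.27).

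Genes that act around the CD3 chains moved in part with them. The list for signalling close to the receptor named 29 symbols, of which 25 had a probe set with that symbol alone and 24 passed the filter. In the step from ALP to preproNK in the KO, 6 of the 24 rose (1.22% of all tested genes did), 1 fell and 17 did not pass the test, with a median of 2.05 log2 against -0.0042 over all tested genes. The largest rises were of the adaptor Sit1 (4.45 log2, SE 0.36, adjusted p = 0.00314), the Tec kinase Txk (3.87, SE 0.45, adjusted p = 0.00851) and Cd5, a brake on receptor signalling (3.43, SE 0.50, adjusted p = 0.0199). The gene that fell was Syk, which encodes the kinase related to Zap70 (-3.34 log2, SE 0.52, adjusted p = 0.026; 0.535% of tested genes were called lower). Zap70 rose by 2.81 log2 (SE 0.49, adjusted p = 0.0362). Its values were 3.88 and 4.13 in KO ALP and 7.24 and 6.38 in KO preproNK, while Syk went from 9.15 and 8.85 to 5.02 and 6.29. In WT 0 of the 24 passed, with 8 at an unadjusted p under 0.05 (7.36% of all tested genes) and a median of 0.71 (-0.047 over all). Between KO and WT preproNK 0 of the 24 passed, with 21 above 0 (57.1% of all tested genes) and a median of 1.06 (0.15 over all), and with the block Sit1 passed (2.74 log2, adjusted p = 0.0457).

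Coreceptors and costimulatory receptors were a second list, with 10 symbols, all with a probe set, and 9 tested. In the step in the KO 6 rose (1.22% of all tested genes did), 0 fell and 3 did not pass, with a median of 3.17 log2. The largest rises were of Thy1 (5.86 log2, SE 0.49, adjusted p = 0.00359), Cd2, an adhesion receptor (5.54, SE 0.76, adjusted p = 0.0148), Icos (4.01, SE 0.45, adjusted p = 0.00851) and Cd28 (3.25, SE 0.38, adjusted p = 0.00851). In WT 2 of the 9 rose (0.0345% of all tested genes did), Thy1 (4.09, SE 0.49, adjusted p = 0.0401) and Icos (3.97, SE 0.45, adjusted p = 0.0342). Icos values overlapped between the genotypes in preproNK, at 9.98 and 9.18 in WT preproNK and 9.57 and 10.41 in KO preproNK. Of the coreceptor genes, Cd4 was among the 6 that rose in the step in the KO (1.95 log2, SE 0.36, adjusted p = 0.0438). Cd8a and Cd8b1 did not pass, with 0.11 and 0.46 log2 in that step. Between KO and WT preproNK 0 of the 9 passed, with a median of 1.04.

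Other adaptors that pair with receptors as the zeta chain does were tested in full, 5 of 5, and none passed in any of these comparisons without the block. Fcer1g, the Fc receptor gamma chain, was at 7.90 and 6.56 in WT ALP and 8.41 and 8.04 in KO ALP, then 7.57 and 7.42 in WT preproNK and 7.68 and 9.21 in KO preproNK, so preproNK overlapped with ALP in each genotype. Tyrobp, which encodes DAP12, had a log2 difference of -0.37 (SE 1.03) in the step in the KO, and Hcst, which encodes DAP10, one of 2.41 (SE 0.60, adjusted p = 0.12). With the block Hcst passed (adjusted p = 0.0248, with 2.59% of genes called higher). Of the receptors that can use the zeta or the Fc receptor gamma chain, 2 of 4 passed the filter. Fcgr3, a low-affinity Fc receptor for IgG, differed by 1.11 (SE 0.38, adjusted p = 0.301) in that step, and Klrb1c, which encodes NK1.1, by 0.84 (SE 0.36, adjusted p = 0.476). Of 13 tested T lineage transcription factors 2 rose there (1.22% of all tested genes did), Bcl11b (4.23 log2, SE 0.61, adjusted p = 0.0196) and Id2 (4.12, SE 0.69, adjusted p = 0.0326), and 0 fell, with a median of 0.28. In WT 0 of these 13 passed, with 5 at an unadjusted p under 0.05, against 7.36% of all tested genes. Id2 is also on the list of NK markers, so its rise is not particular to T lineage factors. The cells were sorted from Id2-GFP reporter mice, and the part of the sort in the rise of Id2 was not tested.

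**Figure D5:**
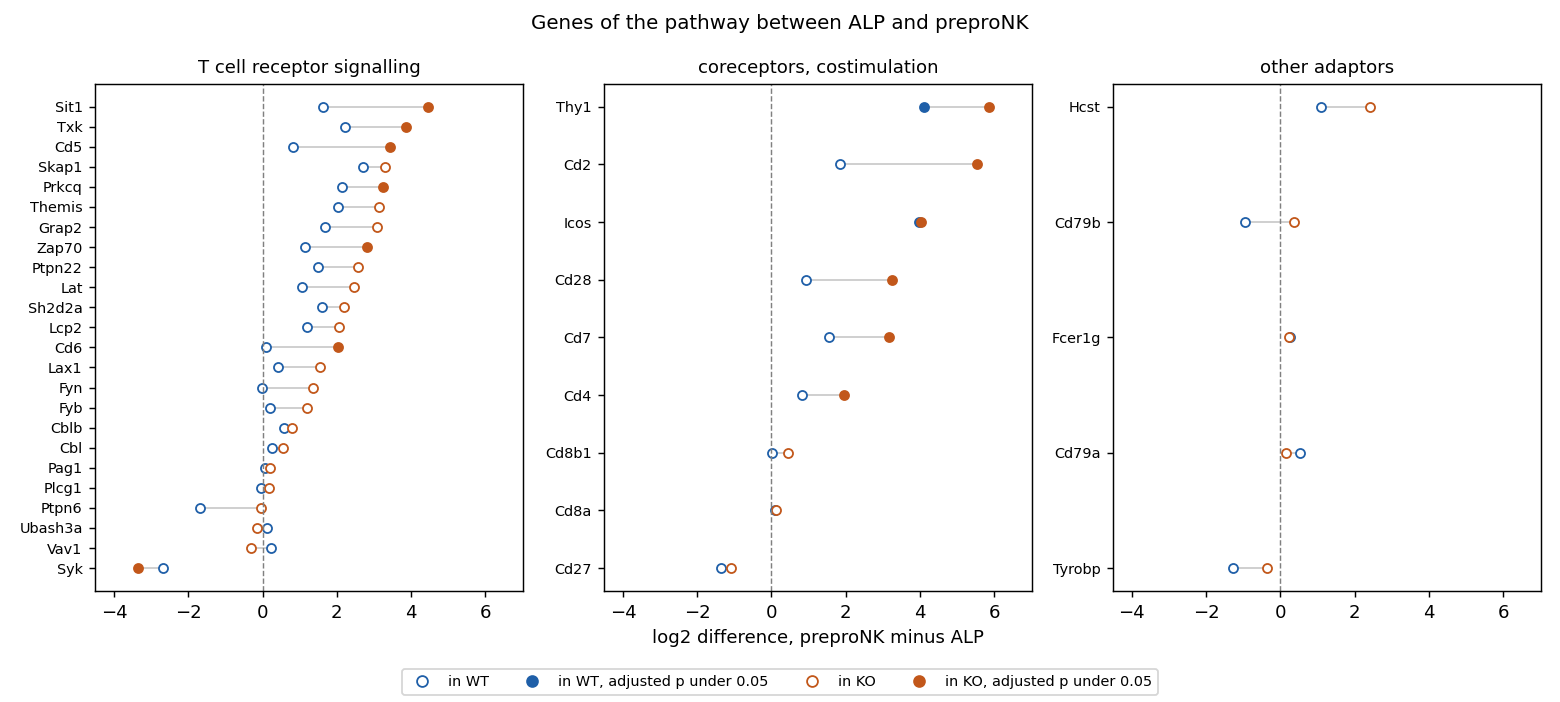
Log2 difference between preproNK and ALP (horizontal axis) for the tested genes of 3 lists, joined by a line, with blue for WT, orange for KO and filled points for an adjusted p under 0.05. Syk (-3.34 in the KO) is the filled point below 0, and Thy1 (5.86) and Cd2 (5.54) are the farthest above it.

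Markers of other cells are given as levels, the mean over a list of the log2 value minus the array median. For T cell markers other than CD3 chains (10 of 13 with a probe set) this was 0.62 to 0.80 on the ALP arrays, 1.92 and 1.27 in WT preproNK and 2.95 and 2.50 in KO preproNK, with 9 of the 10 above the array median on both KO preproNK arrays. The T cell receptor chain genes Tcra and Ptcra were below the median on all 8 arrays, and the list's other 20 names, found on no single-symbol probe set, were not analysed here. For markers of gamma delta T cells (6 of 11 with a probe set) the level was -0.02 to 0.22 in ALP, 2.59 and 1.02 in WT preproNK and 4.97 and 4.49 in KO preproNK. Markers of the NK lineage (13 of 14) were at 0.22 to 0.36 in ALP, 1.38 and 0.75 in WT preproNK and 2.54 and 2.43 in KO preproNK. Markers of the B lineage (7 of 8) did not follow, at 0.66 to 0.77 in ALP and -0.11 to 0.50 in preproNK, with Ms4a1 below the median on all 8 arrays. Markers of type 2 innate lymphoid cells (5 of 7) were at -0.0056 to 0.13 in ALP, 3.13 and 0.75 in WT preproNK and 2.29 and 2.01 in KO preproNK. Both the highest and the lowest of these preproNK levels were in WT, on replicates 1 and 2, so the dates gave opposite orders of the genotypes. Myeloid markers (8 of 8) were at 1.55 to 2.50 in ALP and 0.80 to 2.34 in preproNK, and erythroid markers (5 of 7) at 1.37 to 1.60 and 1.81 to 2.49. Early lymphoid markers (7 of 8) went the other way, from 1.90 to 3.03 in ALP to between -0.50 and -0.17 in preproNK. The part of other cells in the values of the CD3 chains was not tested.

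The genes most like each chain across the 8 arrays are given as a description, by Pearson's r of log2 values over arrays that share stage, genotype and date. For Cd3e they were Tnfrsf25 (r = 0.997), Txk (0.997), Thy1 (0.995), Ccl5 (0.994) and Pxdc1 (0.994). For Cd3d they were Rbpms2, Adgre5, Il2rb, Dock5 and Klrk1 (r from 0.988 to 0.995), and for Cd3g Ccr6, Fam124b, Edaradd, Tlr1 and Zc3hav1 (0.994 to 0.995). Ccr6, a chemokine receptor, was at 7.12 and 4.85 in WT preproNK and 9.66 and 9.29 in KO preproNK, close in shape to Cd3g with its low value on the narrow-range array. For Cd247 they were Actn2, Plxnd1, Syt11, Cd55 and Vsir (r from 0.986 to 0.991). Actn2, a crosslinker of actin, was at 5.66 and 5.07 in WT preproNK, like its ALP values of 4.69 to 5.20, and at 8.36 and 7.96 in KO preproNK. Among themselves, the 3 chains of the chromosome 9 cluster had r from 0.967 to 0.972, and each of them with Cd247 from 0.867 to 0.923. Many other tested genes had higher r. Ranked by r with a chain of the cluster, its cluster partners stood at ranks 39 to 78 and Cd247 at ranks 244 to 390.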

How the data were processed

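The authors deposited 1 log2 value for each probe set and array. The submitters' processing notes name RMA and Partek, with versions not given in the sources used here. The log2 scale was read from the values. Per the labels' protocols, RNA went through 23 cycles of amplification. Precision is limited by the number of arrays.

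Gene names came from the platform annotation (28898 probe sets with 1 symbol, 551 with several, 15692 with none). A gene was represented by its single-symbol probe set with the highest mean over 8 arrays and tested if above the array median on at least 2 arrays, which left 11583 of 17097 genes and all 4 chains. Cd3e and Cd3g passed this filter only through their preproNK arrays. For them it was not independent of the step from ALP to preproNK. One limma 3.58.1 model (lmFit and eBayes, R 4.3.3) with a mean for each of 4 groups was fitted to 8 arrays, with 4 residual degrees of freedom, two-sided tests and Benjamini-Hochberg adjustment over all tested genes in each of 6 comparisons. The code was tested on simulated data. Lower bounds on folds set values below an array's median to that median, a floor chosen after the values were seen. Members and gene lists were chosen with earlier results of these data known. Named genes were the members, per list up to 4 called genes or 3 with the smallest p, and the 5 most correlated genes per member. Icos, Zap70, Cd4, Cd8a, Cd8b1, Dntt, Ncr1, Fcer1g, Tyrobp and the below-median markers outside that rule were named after their values were seen.

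The series design ties each replicate number to a processing date, which pairs the samples. Deviations of replicate 1 arrays from their group means had r from 0.608 to 0.807 between WT ALP, KO ALP and WT preproNK. Between KO preproNK and each of these groups r was only 0.149 to 0.205. Nothing says that samples came from separate animals, so the spread behind the p-values may be technical.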

Additional observations from a re-analysis of the deposited data

Results flagged for a closer look

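For 2 chains the KO and WT values stood in opposite order in the populations on both dates, below WT in ALP and above WT in preproNK. For Cd3e the log2 differences between KO and WT were -0.0071 and -0.21 for ALP, then 1.51 and 3.87 for preproNK (replicates 1 and 2), and for Cd3d they were -0.15 and -1.12, then 2.08 and 2.50. The test of the difference, the interaction, gave 2.79 (SE 0.87) for Cd3e and 2.93 (SE 0.73) for Cd3d, and neither passed (limma, adjusted p = 1 for both, unadjusted p = 0.0126 and 0.00411). For Cd3e the ALP values were all near background, and its difference there turned sign after repeated quantile normalization (0.00069), without WT ALP replicate 2 (0.17) and without KO ALP replicate 1 (0.066).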

How the results depend on the processing

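Values of the 4 chains were recomputed under each alternative. Of 400 recomputed differences, 347 kept their direction and their side of the threshold. With the replicate block the counts of called genes went from 0 to 10 between KO and WT preproNK, from 11 to 67 for the step in WT, from 203 to 449 for the step in the KO and from 391 to 852 for its mean over genotypes, and Cd247 (2.67, KO against WT in preproNK) and Cd3e (4.33, step in WT) passed the test; no other call of a chain changed. With the block and without WT preproNK replicate 2 these counts were 47, 431, 1238 and 1661, and Cd247 (2.54), Cd3e (5.50), Cd3d (2.37) and Cd3g (4.77) passed in the same comparisons. For the step in WT the count was 6 with no filter on dim probe sets, 73 after repeated quantile normalization (Cd3e then passed at 4.65), 3 with arrays centred on their medians, 1 with array weights and 0 from the WT groups alone. For the step in the KO it was 116 with centred arrays, 379 over all probe sets, 902 with array weights and 1234 from the KO groups alone, and for the mean over genotypes 740 over all probe sets. Array weights came out equal within each group, since 2 arrays cannot be told apart. With the mean of all its probe sets Cd247 no longer passed, at 1.99 for the step in the KO and 1.17 for the mean over genotypes. In ALP the KO difference turned sign after quantile normalization for Cd3e (0.00069), Cd3g (0.084) and Cd247 (-0.030) and with centred arrays for Cd3g (0.055).

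Leaving out 1 array, with the lone array assumed to vary like the others, gave counts of 0 to 2532 for KO against WT in preproNK, 0 to 824 for the step in WT, 0 to 530 for the step in the KO and 35 to 1058 for the mean over genotypes. The KO difference in ALP ran from -0.38 to 0.17 for Cd3e, -1.13 to -0.13 for Cd3d, -0.14 to 0.097 for Cd3g and -0.23 to 0.49 for Cd247, and that in preproNK from 1.74 to 3.63 for Cd3e, 1.77 to 2.82 for Cd3d, 1.86 to 5.44 for Cd3g and 2.34 to 3.002 for Cd247. The step in WT ran from 3.38 to 5.27 for Cd3e and 1.23 to 4.82 for Cd3g. The step in the KO ran from 6.89 to 7.35 for Cd3e, 4.39 to 5.03 for Cd3d, 6.48 to 6.91 for Cd3g and 2.73 to 3.44 for Cd247, and the mean over genotypes from 2.98 to 3.51 for Cd3d, 3.96 to 5.76 for Cd3g and 1.64 to 1.99 for Cd247. The interaction ran from 1.85 to 3.74 for Cd3e, 2.40 to 3.46 for Cd3d, 1.88 to 5.46 for Cd3g and 2.18 to 2.89 for Cd247. The causes of these changes were not tested. Below an array's median the signal limits what can be read.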
